A study of Homo sapiens with 12 samples.

Results

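The 50 genes described here are induced by type I and type II interferons and lie outside the major histocompatibility complex. They were taken as a list of gene symbols, and each symbol had 1 row among the 60612 named rows of a table of read counts. RNA was sequenced from ZR-75-1, a human luminal breast cancer line that expresses the oestrogen receptor. Its cells carried the non-targeting guide RNA sgControl or an *RB1* knockout made with CRISPR–Cas9. *RB1* encodes Rb, the protein that CDK4 and CDK6 phosphorylate. Cells received the CDK4/6 inhibitor abemaciclib at 500 nM, or an equal volume of its solvent DMSO, for 5 days. This gave 4 groups of 3 replicates: sgControl in DMSO, sgControl in abemaciclib, *RB1* knockout in DMSO and *RB1* knockout in abemaciclib. Knockout cells were expanded from sorted single cells, and the number of clones behind these libraries is not given in the sources used here, so genotype and clone cannot be told apart. The study describes the replicates of its cell line RNA-seq as biologically independent, and the labels give no detail of how these were grown. The p-values measure the spread between replicates within groups, by a dispersion per gene that all 12 samples share. A call in 1 genotype can therefore change with libraries of the other. Total counts were 61669670 to 81636393 in sgControl cells in DMSO and 57382237 to 66696995 in abemaciclib. They were 39907318 to 51343077 in knockout cells in DMSO and 49711542 to 54092121 in abemaciclib.

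Interferons act through cell surface receptors whose kinases, *JAK1* and *TYK2* for the type I receptor, phosphorylate transcription factors such as *STAT2*. With *IRF9*, *STAT2* takes part in a complex that binds the interferon-stimulated response element, whereas interferon gamma acts at gamma-activated sites. The induced proteins sense, sequester or degrade viral RNA, block entry or release of virus, or attach the ubiquitin-like protein *ISG15* to other proteins. Epithelial tumour cells can also express such genes at a basal level, and inhibitors of CDK4 and CDK6 are known to raise many of them in some breast cancer models.

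Promoter sequences show what many of these genes share. RefSeq sequences on GRCh38.p14, from 250 bases before to 50 bases after a gene start, were found for 40 of the 50 genes. The other 10 were *USP18*, *IFITM2*, *OAS2*, *ZBP1*, *OASL*, *GBP2*, *IFIT2*, *MX2*, *IRF7* and *TRIM22*. The letters GAAANNGAAA of the interferon-stimulated response element, searched on both strands, occurred in the promoters of 27 of the 40 genes (67.5%) and of 1195 of all 27305 genes with a sequence (4.38%). The letters TTCNNNGAA of the gamma-activated site, which read the same on both strands, occurred in 13 of the 40 (32.5%) and in 2560 of all 27305 (9.38%). A match is a description of the letters and no evidence of binding. The windows below hold a match upstream of the gene start in 8 genes on which the results turn. They are read 5′ to 3′ on the strand of the gene, with the match or overlapping matches in capitals, and reach up to 20 bases to either side without passing the gene start.
OAS3: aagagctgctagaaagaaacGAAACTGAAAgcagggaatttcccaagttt
HERC5: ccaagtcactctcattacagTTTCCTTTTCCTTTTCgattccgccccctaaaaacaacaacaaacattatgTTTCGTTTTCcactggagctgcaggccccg
PLSCR1: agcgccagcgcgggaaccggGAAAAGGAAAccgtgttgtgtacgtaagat
IFIT5: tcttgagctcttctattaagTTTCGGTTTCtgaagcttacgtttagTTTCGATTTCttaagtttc
ISG20: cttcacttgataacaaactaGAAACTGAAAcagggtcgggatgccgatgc
IFI27: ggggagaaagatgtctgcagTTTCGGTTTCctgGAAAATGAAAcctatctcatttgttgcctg
IFI6: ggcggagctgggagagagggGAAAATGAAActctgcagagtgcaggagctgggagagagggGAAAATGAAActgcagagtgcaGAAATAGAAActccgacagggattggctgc
LGALS3BP: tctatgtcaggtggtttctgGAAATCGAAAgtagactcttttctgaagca
The *OAS3* window is chr12:112938311-112938360 on the plus strand, the *HERC5* window chr4:88456974-88457074 on the plus strand, and the *PLSCR1* window chr3:146544657-146544706 on the minus strand. Those of *IFIT5*, *ISG20* and *IFI27*, all on the plus strand, are chr10:89414503-89414567, chr15:88638927-88638976 and chr14:94110608-94110670. The minus-strand windows of *IFI6* and *LGALS3BP* are chr1:27672256-27672368 and chr17:78979952-78980001. The windows show the first match or group of matches before the RefSeq gene start, so that 1 of 2 matches is shown for *OAS3* and 2 of 3 for *IFIT5*. In *DTX3L* the match spans the gene start and is not shown. No match to the response element was found in the windows of *OAS1*, *UBE2L6*, *HERC6*, *IFI35* or *STAT2*. The same letters therefore stood before genes that rose and genes that fell with abemaciclib in sgControl cells, as the values below show.

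The labels were checked first. *RB1* was at 4153.7 to 4824.6 normalized counts in sgControl cells in DMSO and 2252.3 to 2488.6 in abemaciclib, against 39.6 to 63.5 in the 6 knockout libraries. *MKI67*, a proliferation marker, fell in sgControl cells from 28035.3 ± 5918.8 to 369.6 ± 87.3 (SD, n = 3) and was at 35750.1 ± 2924.5 and 29490.3 ± 2638.6 in knockout cells. All 8 luminal epithelial markers were well above 3 counts in every library. The leukocyte markers *PTPRC*, *CD3E*, *CD3D* and *MS4A1* and the fibroblast markers *COL1A2*, *COL3A1* and *THY1* had at most 3 counts in every library. Of the other fibroblast markers, *COL1A1* was at 1375 to 3797 counts, and *PDGFRB* and *DCN* reached 29 and 27. The summed level of the 6 fibroblast markers was 1893.6 to 2415.9 normalized counts in DMSO and 2572.1 to 3056.2 in abemaciclib. The summed level of the 8 leukocyte markers was 462.3 to 556.1 normalized counts in sgControl cells in abemaciclib, most of it *LYZ*, and 51.1 to 114.8 elsewhere. Of the 4 basal markers, 1 (*ACTA2*) was above 3 counts in all libraries, and their sum was 134.6 to 152.4 in sgControl cells in abemaciclib against 487.6 to 901.4 elsewhere. Mitochondrial genes held 7.22% to 8.53% of counts in sgControl cells in abemaciclib, 5.44% to 7.39% in knockout cells in abemaciclib and 2.82% to 4.13% in DMSO. The part of these differences in the results below was not tested. Replicate 1 of sgControl in DMSO stood apart from replicates 2 and 3 (chi-square of 65.5 and 141 per gene, against 23.8 between the other two), and calls that were lost without it are named below, and those gained after the last comparison. Without it, 11 genes of the set rose and 17 fell in sgControl cells, 28 rose and 2 fell in knockout cells, the interaction was higher for 23 and lower for 4, and 30 were higher and 1 lower in knockout cells in DMSO and 38 higher and 6 lower in abemaciclib. Over all genes, 5679 then rose and 5686 fell in sgControl cells, against 5657 and 5615 with it. In knockout cells 3246 rose and 3446 fell, against 2773 and 2802. The interaction was higher for 4743 and lower for 4573, against 4415 and 4250. Between genotypes 3451 were higher and 3176 lower in DMSO, against 3206 and 2995. In abemaciclib 6344 were higher and 6107 lower, against 6117 and 5885. In these bulk samples, fewer cells expressing a gene and less RNA per cell cannot be told apart.

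*IRF7*, a transcription factor that amplifies interferon responses, and *ZBP1*, a sensor of Z-form nucleic acid, were listed at 0 in all 12 libraries. The other 48 genes had at least 1 count somewhere. The number of the 50 above 3 counts in a library was 39 or 40 in sgControl cells in DMSO, 37 to 39 in abemaciclib, 42 to 44 in knockout cells in DMSO and 46 to 48 in abemaciclib. Together they held 0.131% to 0.148% of all counts in sgControl cells in DMSO, 0.135% to 0.141% in abemaciclib, 0.160% to 0.161% in knockout cells in DMSO and 0.174% to 0.181% in abemaciclib. A few genes make up most of these sums. In replicate 1 of sgControl in DMSO, *ADAR* held 27966, *BST2* 27965 and *LGALS3BP* 4245 of 81238 counts. In replicate 1 of sgControl in abemaciclib they held 28550, 24295 and 13177 of 78263. The heat map of all 48 detected genes shows the pattern by library.

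**Figure D1:**
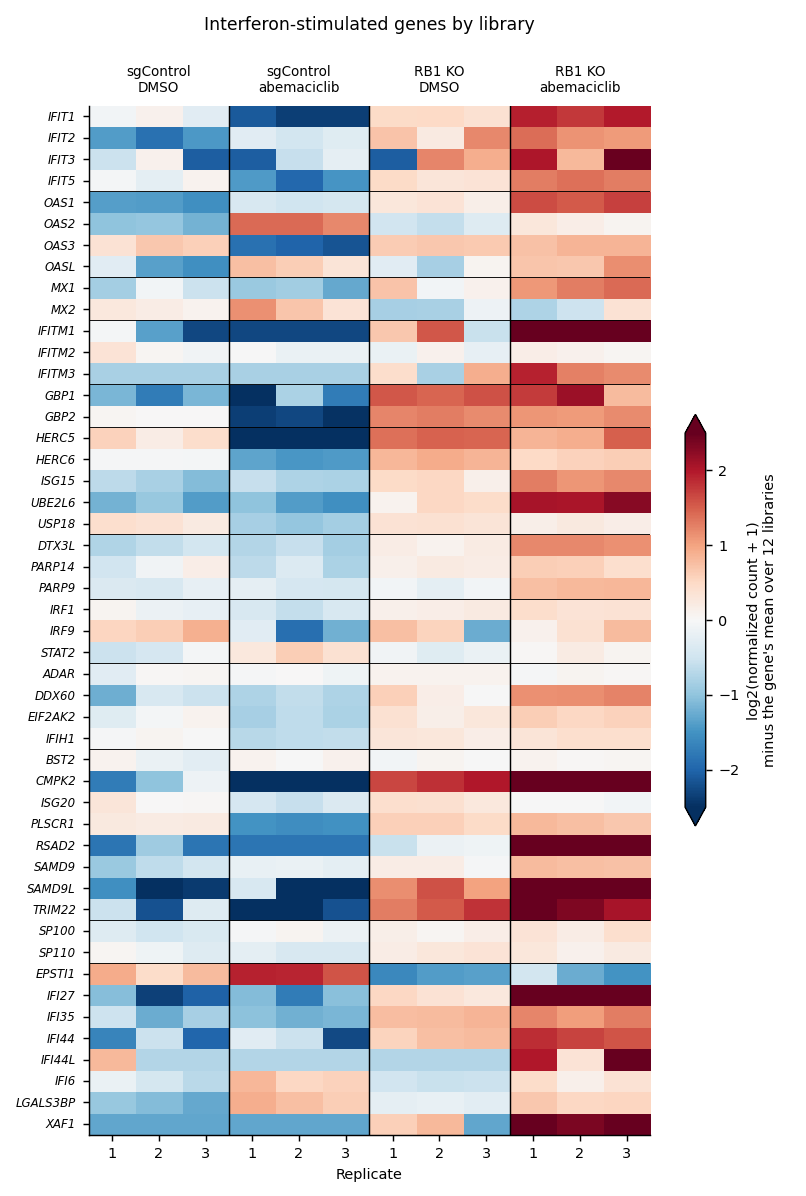
Heat map of the 48 interferon-stimulated genes with a count (rows, grouped by role, italics) in the 12 libraries (columns, replicates 1 to 3 of each group). Colour is log2(normalized count + 1) minus the mean of that gene over the 12 libraries, blue lower and red higher, and the darkest colours also cover values beyond 2.5. Knockout cells in abemaciclib were highest for most genes, while OAS2, EPSTI1, MX2, LGALS3BP, STAT2, IFI6 and BST2 were, by their means, highest in sgControl cells in abemaciclib.

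The first comparison asked how these genes respond to CDK4/6 inhibition when *RB1* is intact. Abemaciclib split the set in sgControl cells: 10 genes rose, 17 fell and 21 did not pass the test, of 48 tested. *OAS3*, *HERC5*, *GBP2* and *PLSCR1* fell most among genes with a mean of at least 50 normalized counts, and *OAS2*, *LGALS3BP*, *IFI6* and *OAS1* rose most. Over all 23512 genes tested, 24.1% were called higher and 23.9% lower at an adjusted p-value under 0.05. The shares of the tested set were 20.8% higher, which is near the background, and 35.4% lower. The median log2 fold change was −0.19 over the set and 0.01 over all genes. Scaling by total counts moved the log2 fold change of the median gene by −0.13 and gave 8 higher and 20 lower, with 4529 higher and 6774 lower among all genes against 5657 and 5615, and changes of that size depend on the scaling chosen.

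The oligoadenylate synthetases make a second messenger that activates the RNA-degrading enzyme RNase L, and they moved in opposite directions. *OAS3* was at 5268, 6571.5 and 6239.7 normalized counts in sgControl cells in DMSO and at 1130.5, 1021 and 916 in abemaciclib. Every treated library was far below every untreated one, and *OAS3* fell (log2 fold change −2.56 ± 0.09, adjusted p = 1.13e-176, given with its SE here and below). *OAS2* went from 95, 97.8 and 83.2 to 512, 509 and 441 and rose (2.41 ± 0.14, adjusted p = 8.91e-70), again with no overlap between the groups. *OAS1* rose from 40, 39.7 and 35.9 to 79.7, 75.3 and 78.4 (1.02 ± 0.19, adjusted p = 2.13e-07). *OASL*, a related protein without synthetase activity, rose too (1.59 ± 0.35, adjusted p = 1.58e-05). Of the 4 genes in this role, 3 rose and 1 fell.

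Genes of *ISG15* conjugation fell or did not pass the test. *HERC5*, the ligase that attaches *ISG15* to new proteins, was at 56.8, 43.2 and 51.7 normalized counts in DMSO and 4.3, 4.4 and 3.5 in abemaciclib (−3.63 ± 0.46, adjusted p = 1.62e-14). Its neighbour *HERC6*, a ubiquitin ligase of the same family, went from 652, 649 and 645 to 268, 243.5 and 248 (−1.36 ± 0.08, adjusted p = 3.98e-58). Both fell with no overlap between treated and untreated libraries. *USP18*, which removes *ISG15* and dampens type I interferon signalling, fell as well (−1.23 ± 0.08, adjusted p = 1.63e-48), although 15.5% of the 100-base windows of its transcripts also occur in other genes such as USP41, so part of its counts may belong to those copies. *ISG15* itself was at 69.8, 62.6 and 51.7 in DMSO and 74.4, 64.6 and 63.4 in abemaciclib, overlapping ranges with a log2 fold change of 0.15 ± 0.19, adjusted p = 0.576. *UBE2L6*, the enzyme that passes *ISG15* to the ligase, was at 35.4, 41.4 and 30.2 in DMSO and 39.9, 30.1 and 27.3 in abemaciclib, which also overlapped (−0.14 ± 0.24, adjusted p = 0.689).

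Other RNA-binding and membrane-acting proteins also fell. *GBP2*, a guanylate-binding protein that coats pathogen membranes, dropped from 407, 397.5 and 399 to 76.5, 80.6 and 70.5 normalized counts (−2.40 ± 0.12, adjusted p = 7.54e-88). *PLSCR1*, a phospholipid scramblase that limits viral entry, dropped from 607, 592 and 595 to 180.0, 174 and 178 (−1.76 ± 0.09, adjusted p = 2.9e-76). The 3 libraries of each group lay close together in both genes, and the groups did not overlap. *IFIT5*, which binds single-stranded RNA ends, fell from 133, 115.5 and 145 to 50.7, 34.5 and 48.5 (−1.57 ± 0.18, adjusted p = 1.68e-17). *IFIT1* fell (−2.37 ± 0.41, adjusted p = 3.06e-08), whereas *IFIT2* rose (1.32 ± 0.47, adjusted p = 0.0117) and *IFIT3*, with at most 3.5 normalized counts in these libraries, was at −0.16 ± 1.22 (adjusted p = 0.94). *ISG20*, an RNA exonuclease, fell from 1049, 849.6 and 864 to 633, 569 and 662.5 (−0.57 ± 0.10, adjusted p = 2.22e-08). *TRIM22*, an antiviral ubiquitin ligase, fell at low counts (−2.45 ± 0.76, adjusted p = 0.00338), and *CMPK2*, a nucleotide kinase, was at 2.8 to 10.7 normalized counts in DMSO and at 0 in all 3 treated libraries, at least 7.29-fold lower against a floor of 3 counts over the group, which covers counting error only. The RNA sensor *IFIH1* (−0.65 ± 0.07, adjusted p = 1.35e-21) and the RNA-activated kinase *EIF2AK2* (−0.67 ± 0.10, adjusted p = 6.85e-10) fell by less than 2-fold, as did *PARP14*, an ADP-ribosyltransferase (−0.47 ± 0.15, adjusted p = 0.00366), and the nuclear body protein *SP110* (−0.23 ± 0.10, adjusted p = 0.0458).

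*LGALS3BP*, a secreted galectin-binding glycoprotein, rose from 3952, 3551 and 3129.6 to 14200.4, 12813.5 and 11576 normalized counts (1.86 ± 0.09, adjusted p = 6.2e-91). *IFI6*, a survival factor of the endoplasmic reticulum and mitochondria, rose from 518.5, 429 and 367 to 1043, 832 and 874 (1.07 ± 0.13, adjusted p = 2.36e-15). All treated libraries exceeded all untreated ones in both. Rises were also seen in *SAMD9*, an inhibitor of viral translation (0.45 ± 0.13, adjusted p = 0.00123), *SP100*, a component of nuclear bodies (0.37 ± 0.11, adjusted p = 0.00151), and *EPSTI1*, a stromal interaction gene (1.08 ± 0.30, adjusted p = 0.00102). With total-count scaling *SAMD9* (adjusted p = 0.0585) and *SP100* (adjusted p = 0.0665) no longer passed.

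The transcription factors split as well. *STAT2* was at 710.3, 775 and 999.7 normalized counts in DMSO and 1244, 1592 and 1346 in abemaciclib and rose (0.75 ± 0.12, adjusted p = 1.08e-08). *IRF9*, its partner in the induced complex, was at 14, 15 and 18.3 in DMSO and 7.5, 1.8 and 3.5 in abemaciclib and fell (−1.93 ± 0.64, adjusted p = 0.00678), at low counts and in a gene that shares 15.4% of its 100-base windows with an overlapping gene on the same strand. *IRF1*, an activator of both interferon types of target, was at 718, 614 and 589.6 in DMSO and 515, 451 and 515 in abemaciclib and fell by less than 2-fold (−0.37 ± 0.09, adjusted p = 0.000225). None of these 3 overlapped between treated and untreated libraries. How many of all genes lacked overlap was not counted, here or in the other comparisons. In fits that left out 1 library, 4 calls of this comparison were lost: *IFIT2* without replicate 2 of sgControl in DMSO (adjusted p = 0.0519), *IRF9* without replicate 2 of sgControl in abemaciclib (0.0567), *PARP14* without replicate 3 of sgControl in DMSO (0.0505), and *SP110* without any 1 of 9 libraries (0.0505 to 0.21), among them replicate 1 of sgControl in DMSO.

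**Figure D2:**
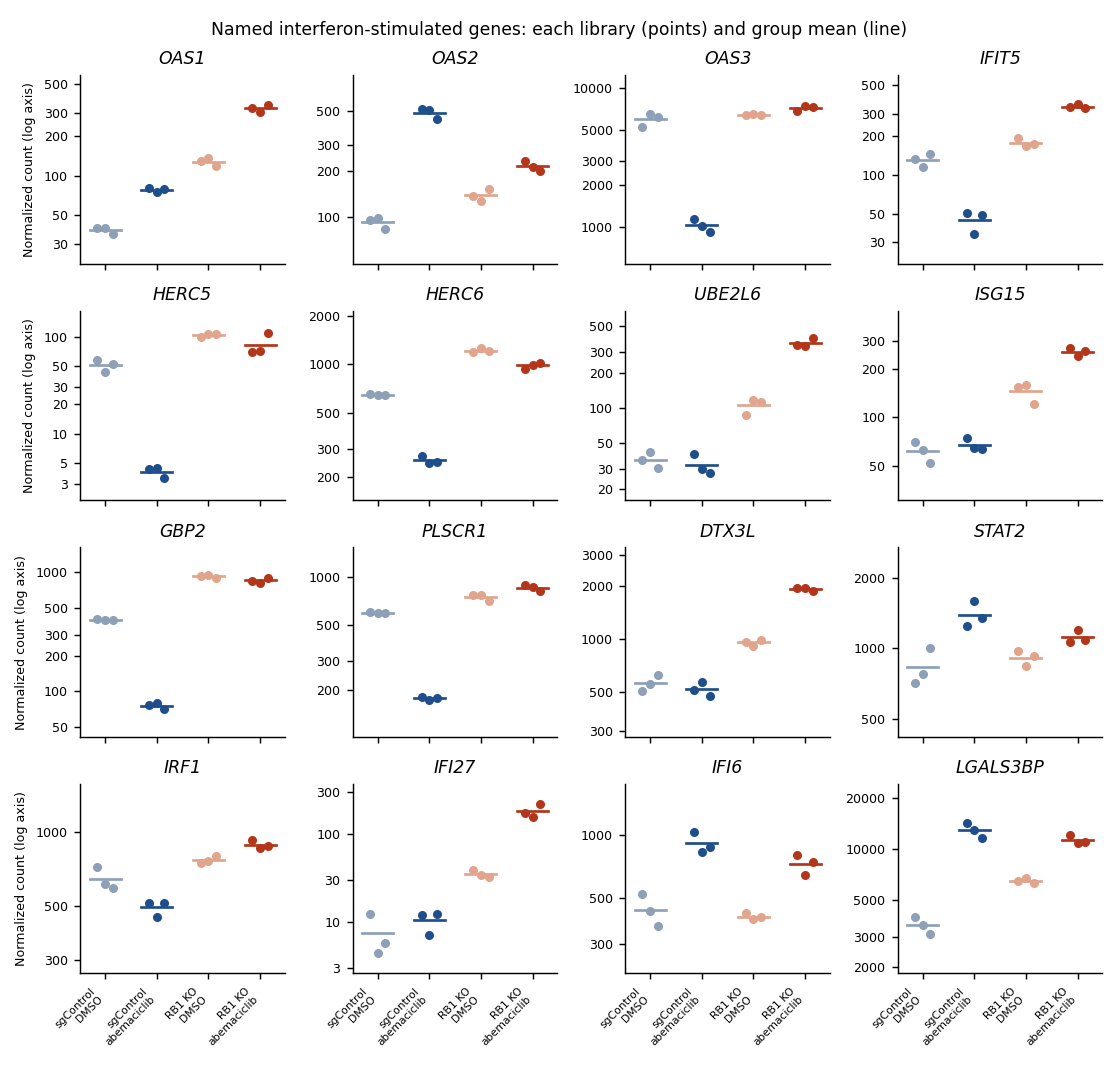
Normalized counts (log axis, scaled for each gene) of 16 interferon-stimulated genes, with a point for each library and a line for the mean of 3 replicates in sgControl and RB1-knockout (RB1 KO) cells in DMSO or abemaciclib. OAS3, HERC5, GBP2 and PLSCR1 were lowest in sgControl cells in abemaciclib, OAS2 was highest there, and UBE2L6, ISG15, DTX3L and IFI27 were highest in knockout cells in abemaciclib.

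The second comparison asked the same without *RB1*. In knockout cells 24 genes rose with abemaciclib and 2 fell, and 20 of the 46 tested did not pass. Over all 18506 genes tested, 15.0% were called higher and 15.1% lower, against 52.2% and 4.35% of the tested set. The median log2 fold change was 0.56 over the set and 0.02 over all genes. Of the 24, 10 rose by at least 2-fold, a count that was not made over all genes.

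*IFI27*, a mitochondrial protein and one of the most inducible of these genes, went from 38.3, 34.2 and 31.8 normalized counts in DMSO to 172, 154 and 216 in abemaciclib (2.38 ± 0.27, adjusted p = 2.36e-16). *UBE2L6* went from 86.1, 117 and 112.5 to 342, 336 and 396 (1.76 ± 0.18, adjusted p = 1.51e-21), and its substrate *ISG15* from 154, 159.8 and 122 to 269.5, 241 and 258 (0.82 ± 0.16, adjusted p = 5.21e-06). In all 3 genes every treated library lay above every untreated one. *OAS1* rose from 128, 135.5 and 118 to 331, 307 and 348 (1.37 ± 0.14, adjusted p = 3.14e-19). *DTX3L*, a ubiquitin ligase that works with *PARP9*, rose from 966, 913 and 988 to 1951, 1953 and 1876 (1.01 ± 0.09, adjusted p = 9.44e-28), while in sgControl cells it was at 504.5, 555 and 624 in DMSO and 511, 570.3 and 471 in abemaciclib (−0.12 ± 0.10, adjusted p = 0.311). *PARP9* rose by 0.92 ± 0.09 (adjusted p = 1.49e-21) and *PARP14* by 0.36 ± 0.15 (adjusted p = 0.0445). The call of *PARP14* was marginal and was lost with edgeR, total-count scaling or no filter (adjusted p = 0.0544, 0.0891 and 0.0772). *DTX3L* and *PARP9* start next to each other and overlap on opposite strands, and whether the counting used strand is not stated. Over the set, 25 of the 50 genes have an antisense overlap and 10 a sense overlap with another annotated gene, so that reads of such pairs may not be separable.

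*IFIT5*, which fell in sgControl cells, went from 193, 169 and 175 to 335, 356 and 332 normalized counts in knockout cells (0.94 ± 0.14, adjusted p = 1.1e-09), and *IFIT1* rose as well (1.47 ± 0.24, adjusted p = 2.6e-08). *OAS2* went from 137, 127 and 152 to 232, 214 and 202 (0.64 ± 0.14, adjusted p = 6.84e-05). *LGALS3BP* went from 6459.5, 6674.5 and 6277 to 12013, 10799.6 and 10918 (0.80 ± 0.09, adjusted p = 1.32e-16) and *IFI6* from 419, 395.5 and 401 to 799.5, 640.2 and 745 (0.85 ± 0.14, adjusted p = 7.57e-09). These 3 rose in both genotypes, as did *OAS1*, *OASL* and *SAMD9*. Several genes rose from low counts in DMSO. *RSAD2*, which encodes the antiviral enzyme viperin, was at 1.4, 2.2 and 2.3 normalized counts in DMSO and 43, 39 and 43.4 in abemaciclib (4.40 ± 0.79, adjusted p = 3.56e-07). *XAF1*, a pro-apoptotic gene (2.76 ± 1.08, adjusted p = 0.0372), *IFITM1*, a membrane protein that blocks viral fusion (2.34 ± 0.70, adjusted p = 0.00413), and *SAMD9L*, a relative of *SAMD9* (2.05 ± 0.39, adjusted p = 2.16e-06), rose from at most 24.2 normalized counts. The RNA helicase *DDX60* (0.92 ± 0.18, adjusted p = 6.9e-06) and the GTPase *MX1* (0.99 ± 0.27, adjusted p = 0.00145), which traps viral particles, rose at higher levels.

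The falls were those of *HERC6*, from 1186, 1263 and 1207 to 939, 994 and 1024 normalized counts (−0.31 ± 0.07, adjusted p = 0.000117), and of *ISG20*, from 1141, 1113 and 1021 to 844, 843 and 805 (−0.39 ± 0.10, adjusted p = 0.000356). Both also fell in sgControl cells. The 4 genes that fell most in sgControl cells among those with a mean of at least 50 normalized counts did not pass here. *OAS3* was at 6397, 6543 and 6431 in DMSO and 6842, 7410.3 and 7389.5 in abemaciclib (0.16 ± 0.09, adjusted p = 0.162), and *PLSCR1* at 772, 772 and 708 in DMSO and 891, 858 and 812 in abemaciclib (0.18 ± 0.08, adjusted p = 0.0589), and neither overlapped between treated and untreated libraries. *GBP2* was at 928, 954 and 899 in DMSO and 854, 822 and 901 in abemaciclib (−0.11 ± 0.08, adjusted p = 0.313) and *HERC5* at 99.7, 107 and 106 in DMSO and 69.1, 71.6 and 108 in abemaciclib (−0.33 ± 0.24, adjusted p = 0.325), and in these the groups overlapped. Nor did the transcription factors pass: *STAT2* was at 973, 841 and 925 in DMSO and 1061, 1195 and 1087 in abemaciclib (0.29 ± 0.13, adjusted p = 0.0707), *IRF1* at 746, 765 and 796 in DMSO and 925, 863 and 873.5 in abemaciclib (0.21 ± 0.09, adjusted p = 0.0782), and *IRF9* at 16.4, 14.3 and 3.4 in DMSO and 10.2, 12.6 and 17.1 in abemaciclib (0.25 ± 0.59, adjusted p = 0.811). *IFI35*, which binds other induced proteins, was at 224, 228 and 236.5 in DMSO and 305, 273 and 319.7 in abemaciclib and passed narrowly (0.38 ± 0.15, adjusted p = 0.0409). When only the knockout libraries were fitted, *OAS3*, *STAT2* and *IRF1* did pass (adjusted p = 0.00151, 0.00175 and 0.0345). With the replicate number as a block in that fit, *OAS3* and *STAT2* still passed (adjusted p = 0.0123 and 0.0188). Without the block it gave 28 higher and 2 lower in the set, and 3126 and 3598 over all genes. The calls of *OAS3*, *STAT2* and *IRF1* thus depended on the libraries fitted.

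Without a single library, 6 of the 26 calls in knockout cells were lost: *CMPK2* (2 libraries, adjusted p = 0.0516 to 0.0625), *EIF2AK2* (4 libraries, adjusted p = 0.0542 to 0.118), *IFI35* (6 libraries, adjusted p = 0.0524 to 0.176), *PARP14* (7 libraries, adjusted p = 0.0503 to 0.145), *TRIM22* (5 libraries, adjusted p = 0.0591 to 0.252) and *IFITM1*, the last without replicate 1 of *RB1* knockout in abemaciclib (adjusted p = 0.0756). The first number in each bracket counts the libraries whose absence lost the call. With all 12 libraries, the genes called in neither genotype were *ADAR*, *BST2*, *GBP1*, *IFI44*, *IFIT3*, *IFITM2* and *MX2*, and *BST2* passed in sgControl and *IFITM2* in knockout cells without replicate 1 of sgControl in DMSO (adjusted p = 4.24e-07 and 0.0414). For *ADAR*, an RNA-editing enzyme, the 95% interval of the log2 fold change was −0.13 to 0.18 in sgControl cells and −0.22 to 0.09 in knockout cells. For *BST2*, which tethers budding virus, it was 0.01 to 0.33 and −0.11 to 0.21. The plot of both responses sets the 2 genotypes side by side.

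**Figure D3:**
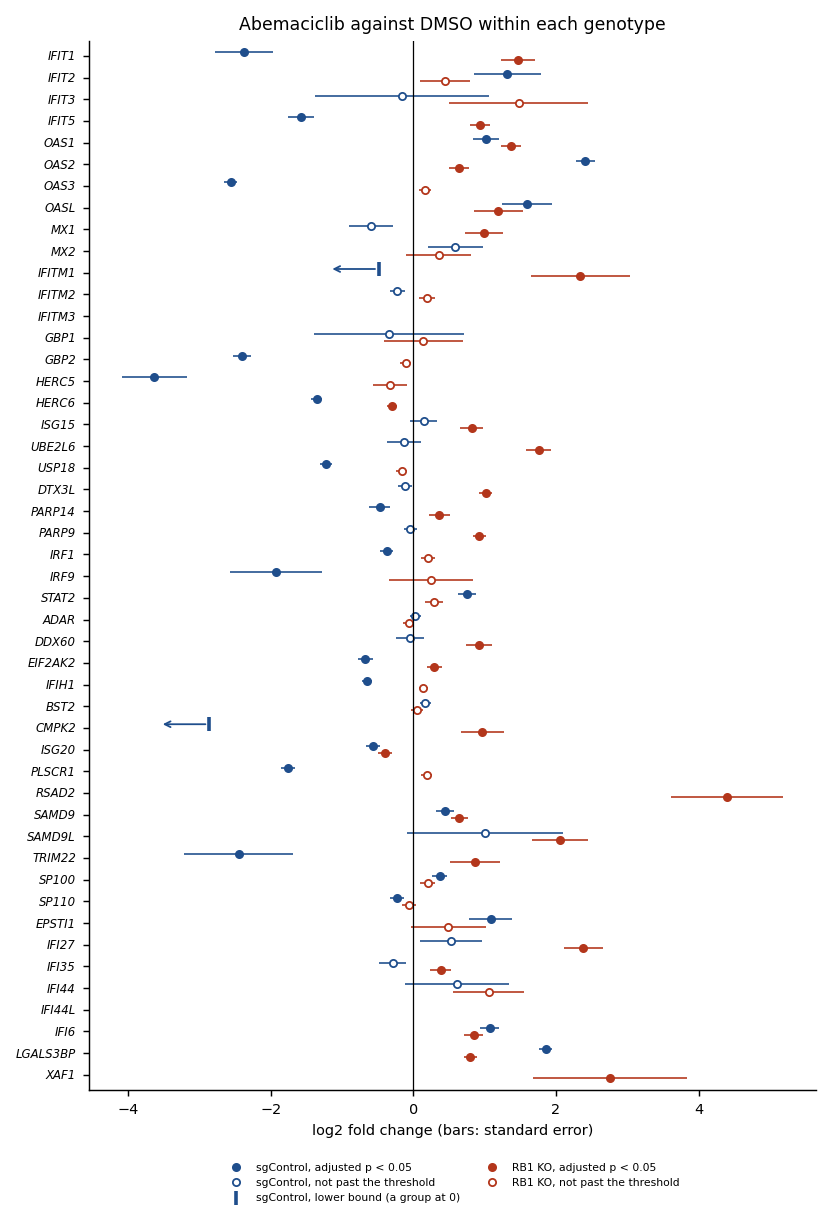
Log2 fold change of each gene (rows, grouped by role) for abemaciclib against DMSO in sgControl (blue) and RB1-knockout (red) cells, with the standard error as a bar, filled points for adjusted p-values under 0.05 and open points otherwise. Ticks with an arrow are bounds where all treated sgControl libraries were at 0 (IFITM1, not called, and CMPK2), and no value is drawn where both groups held at most 3 counts or the gene was not tested. Blue points lie on both sides of 0, from OAS2 at 2.41 to HERC5 at −3.63, and nearly all filled red points lie to the right, with HERC6 and ISG20 on the left.

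The third comparison, the interaction, tested directly whether the response to abemaciclib differed between the genotypes. It uses the same 12 libraries as both responses and is no independent evidence of them. The log2 response was higher in knockout than in sgControl cells for 26 genes and lower for 3, and 18 of the 47 tested did not pass. Over all 21008 genes tested, 21.0% were called higher and 20.2% lower, against 55.3% and 6.38% of the tested set, with a median log2 difference of 0.96 over the set and 0.03 over all genes. With total counts the median gene moved by 0.14, to 5466 higher and 3099 lower among all genes against 4415 and 4250, and gave 28 higher and 2 lower in the set.

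All 5 genes of *ISG15* conjugation were among the 26: *HERC5* (3.31 ± 0.52, adjusted p = 1.18e-09), *UBE2L6* (1.90 ± 0.30, adjusted p = 1.27e-09), *USP18* (1.06 ± 0.12, adjusted p = 3.62e-19), *HERC6* (1.05 ± 0.11, adjusted p = 9.19e-21) and *ISG15* (0.67 ± 0.25, adjusted p = 0.0198). The paths differed. *HERC5*, *HERC6* and *USP18* fell in sgControl cells, whereas *UBE2L6* and *ISG15* rose in knockout cells. The 3 genes of the *PARP9* and *DTX3L* module were also all higher, at 1.13 ± 0.13 for *DTX3L*, 0.96 ± 0.13 for *PARP9* and 0.83 ± 0.21 for *PARP14* (adjusted p = 3.67e-17, 2.81e-12 and 0.000241). Among the largest differences were those of *OAS3* (2.72 ± 0.12, adjusted p = 7.56e-103), *IFIT5* (2.51 ± 0.23, adjusted p = 1.51e-26), *GBP2* (2.29 ± 0.14, adjusted p = 4.3e-56) and *PLSCR1* (1.94 ± 0.12, adjusted p = 9.58e-55).

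In 6 genes the 2 responses were called in opposite directions, lower in sgControl and higher in knockout cells: *CMPK2*, *EIF2AK2*, *IFIT1*, *IFIT5*, *PARP14* and *TRIM22*. Such opposite calls were not counted over all genes. The call in knockout cells was lost without a single library in *CMPK2*, *EIF2AK2*, *PARP14* and *TRIM22*, as given above, and with total-count scaling in *EIF2AK2* (adjusted p = 0.0698) and *PARP14*, which also lost its call in sgControl cells without 1 library. *TRIM22* did not pass in knockout cells with no filter or with the replicate block (adjusted p = 0.0782 and 0.0873). *IFIT1* and *IFIT5* kept both calls in all alternatives. The interaction passed in each of the 6, with log2 differences of 0.97 for *EIF2AK2*, 3.84 for *IFIT1* and 3.31 for *TRIM22*. The response was smaller in knockout cells in 3 genes. *OAS2* (−1.77 ± 0.20, adjusted p = 2.17e-18) and *LGALS3BP* (−1.06 ± 0.13, adjusted p = 1.82e-15) rose in both genotypes but less in the knockout. *STAT2* (−0.46 ± 0.18, adjusted p = 0.0263) was called higher in sgControl cells alone in the fit of all 12 libraries, though in knockout cells too when only the knockout libraries were fitted. The *STAT2* difference was lost when libraries were scaled by totals (adjusted p = 0.242) or without any 1 of 6 libraries (0.0564 to 0.104). *OAS1* (0.35 ± 0.24, adjusted p = 0.254), *IFI6* (−0.22 ± 0.19, adjusted p = 0.376), *OASL* (−0.40 ± 0.49, adjusted p = 0.564) and *SAMD9* (0.20 ± 0.18, adjusted p = 0.412), which rose in both genotypes, did not pass the interaction test, and the 95% interval was −0.59 to 0.15 for *IFI6* and −0.15 to 0.54 for *SAMD9*.

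Other differences rested on few counts or single libraries. *IFITM1* did not pass without replicate 1 of sgControl in DMSO (adjusted p = 0.161), nor did *IFI35* (0.0881, and 0.0525 without replicate 3 of *RB1* knockout in abemaciclib). *RSAD2* did not pass without replicate 2 of sgControl in DMSO (0.106), the only one of these sgControl libraries with a count. The difference in *ISG15* was lost without any 1 of 5 libraries (0.0526 to 0.0727), among them replicate 1 of sgControl in DMSO at 0.0701. That in *IFITM2* was lost without any 1 of 4 (0.0534 to 0.0679) and that in *IRF9* without any 1 of 7 (0.056 to 0.109).

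The fourth comparison asked whether the genotypes differed before drug. In DMSO 29 genes were higher in knockout than in sgControl cells and 1 was lower, of 46 tested. Over all 19757 genes tested, 16.2% were called higher and 15.2% lower, against 63.0% and 2.17% of the tested set. The median log2 difference was 0.72 over the set and 0.00 over all genes. Of the 29, 14 were at least 2-fold higher, a count that was not made over all genes. With sgControl, *IFI27* was at 12.1, 4.4 and 5.7 normalized counts without drug and 11.9, 7.1 and 12.3 with abemaciclib, ranges that overlapped (response 0.53 ± 0.43, adjusted p = 0.337). The 3 knockout libraries of *IFI27*, *OAS1*, *UBE2L6* and *ISG15* in DMSO all lay above the 3 sgControl libraries in DMSO. The differences were 2.27 ± 0.39, adjusted p = 5.28e-08 for *IFI27*, 1.73 ± 0.18, adjusted p = 9.61e-20 for *OAS1*, 1.58 ± 0.21, adjusted p = 1.95e-12 for *UBE2L6* and 1.26 ± 0.18, adjusted p = 7.39e-11 for *ISG15*.

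*IFI35* was at 91.2, 54.6 and 73.1 normalized counts in sgControl cells and 224, 228 and 236.5 in knockout cells in DMSO, without overlap (1.66 ± 0.17, adjusted p = 2.8e-21). Both guanylate-binding proteins were higher: *GBP2* by 1.21 ± 0.08 (adjusted p = 1.34e-47) and *GBP1*, at 0.9 to 1.9 against 16.5 to 18.2 normalized counts, by 3.48 ± 0.79 (adjusted p = 7.82e-05). So were both nuclear body genes, *SP100* (0.52 ± 0.11, adjusted p = 1.31e-05) and *SP110* (0.40 ± 0.10, adjusted p = 0.000305), and 4 of the 5 *ISG15* conjugation genes, *USP18* being the exception (0.01 ± 0.08, adjusted p = 0.928). *SAMD9L* had 3 counts over the sgControl libraries in DMSO, and the ratio to knockout cells was 24.6 (95% interval 7.94 to 123), which covers counting error only. *OAS3* (0.10 ± 0.09, adjusted p = 0.432) and *PLSCR1* (0.33 ± 0.08, adjusted p = 0.000233) differed by less than 2-fold, and the former did not pass. Nor did *STAT2* (0.14 ± 0.13, adjusted p = 0.467) or *IRF9* (−0.49 ± 0.57, adjusted p = 0.586), while *IRF1* did (0.27 ± 0.09, adjusted p = 0.0157). Single libraries decided the calls of *IFIT5* (2 libraries, adjusted p = 0.0808 to 0.083), *IFITM1* (6 libraries, adjusted p = 0.0528 to 0.246), *IRF1* (4 libraries, adjusted p = 0.0536 to 0.104), *ISG20* (4 libraries, adjusted p = 0.121 to 0.16) and *MX1* (3 libraries, adjusted p = 0.0969 to 0.255, among them replicate 1 of sgControl at 0.122).

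*EPSTI1* was the only one of the set called lower in knockout cells in DMSO. It was at 37.2, 26.4 and 33.4 normalized counts in sgControl cells and 5.5, 6.6 and 6.8 in knockout cells (−2.35 ± 0.46, adjusted p = 3.74e-06), and at 74.4, 73.5 and 58.1 against 13.6, 7.4 and 6.1 in abemaciclib (−2.95 ± 0.40, adjusted p = 6.16e-13). It lies on the long arm of chromosome 13, as *RB1* does, at chr13:42886388-42992271 (GRCh38). The 70 other genes within 10 megabases of it, with a mean of at least 100 normalized counts and *RB1* left out, had a median log2 difference of −0.72 in DMSO, where 67 of them were below 0, and of −0.54 in abemaciclib, where 56 were. The median over 11259 genes on other chromosomes was −0.01 in both. The part of this regional difference in the *EPSTI1* values was not tested.

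The fifth comparison set the genotypes side by side under drug. In abemaciclib 38 genes were higher in knockout than in sgControl cells and 5 were lower, and 5 of the 48 tested did not pass. Over all 22260 genes tested, 27.5% were called higher and 26.4% lower, against 79.2% and 10.4% of the tested set. The median log2 difference was 1.92 over the set and 0.02 over all genes. Of the 38, 33 were at least 2-fold higher, a count that was not made over all genes. With total counts the median gene moved by 0.12, to 6990 higher and 4819 lower among all genes against 6117 and 5885, and gave 39 higher and 2 lower in the set.

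*HERC5* (4.35 ± 0.46, adjusted p = 1.17e-20), *IFI27* (4.12 ± 0.34, adjusted p = 3.76e-33), *GBP2* (3.50 ± 0.12, adjusted p = 4.23e-193) and *UBE2L6* (3.48 ± 0.21, adjusted p = 4.56e-61) differed most among genes with a mean of at least 50 normalized counts. In the values above, every knockout library of these 4 genes exceeded every sgControl library. *OAS3* (2.82 ± 0.09, adjusted p = 5.49e-214), *IFIT5* (2.94 ± 0.17, adjusted p = 5.87e-63) and *PLSCR1* (2.27 ± 0.09, adjusted p = 5.66e-128), which differed by less than 2-fold in DMSO, were now more than 2-fold higher in knockout cells. *IFI35* was at 63.6, 56.7 and 59 normalized counts in sgControl cells and 305, 273 and 319.7 in knockout cells (2.33 ± 0.17, adjusted p = 1.11e-39). All 4 IFIT genes, all 5 *ISG15* conjugation genes and all 3 of the *PARP9* and *DTX3L* module were higher, as were *IRF1* (0.85 ± 0.09, adjusted p = 1.29e-18) and *IRF9* (1.69 ± 0.66, adjusted p = 0.0212).

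Several genes had no count in sgControl cells in abemaciclib. Against a floor of 3 counts over those 3 libraries, *CMPK2* was at least 93.1-fold higher, *RSAD2* at least 44.5-fold, *IFITM1* at least 39.9-fold and *XAF1* at least 14.3-fold. *IFI44L* (at least 6.03-fold) and *IFITM3* (at least 4.14-fold) had at most 10.1 and 5.7 normalized counts in any library. Deviations of same-numbered libraries correlated weakly in this comparison (0.15, 0.26 and 0.11), and libraries of different numbers were not compared. With the replicate number as a block, *IFI44L* and *IFITM3* did not pass (adjusted p = 0.351 and 0.068). With the block on the 6 samples compared alone, *IFITM3* (0.0788), *IRF9* (0.0975) and *MX2* (0.118) lost their calls.

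The genes lower in knockout cells in abemaciclib were *OAS2*, *EPSTI1*, *MX2*, *STAT2* and *IFI6*. *OAS2*, at 201.7 to 232.2 normalized counts against 441.3 to 511.9, had no overlap between the genotypes (−1.18 ± 0.12, adjusted p = 3.59e-20), although it was higher in knockout cells in DMSO (0.60 ± 0.15, adjusted p = 0.000481). That call in DMSO was lost with the replicate block on the 6 samples compared alone (adjusted p = 0.106). *STAT2* (−0.32 ± 0.12, adjusted p = 0.0201), *IFI6* (−0.33 ± 0.13, adjusted p = 0.0221) and *MX2*, a GTPase that blocks viral nuclear import (−0.997 ± 0.41, adjusted p = 0.0288), lost their calls under total-count scaling (adjusted p = 0.25, 0.09 and 0.0592). *LGALS3BP* (−0.19 ± 0.09, adjusted p = 0.0589) and *IFITM2* (0.22 ± 0.11, adjusted p = 0.0759) did not pass, but did with the replicate block (adjusted p = 0.00955 and 0.0409). Leaving out 1 library lost the calls of *IFI44L* (5 libraries, adjusted p = 0.0607 to 0.319, among them replicate 1 of sgControl in DMSO at 0.319), *IFITM3* (7 libraries, adjusted p = 0.056 to 0.0968), *MX2* (4 libraries, adjusted p = 0.0623 to 0.163), *STAT2* (3 libraries, adjusted p = 0.0716 to 0.163), *IRF9* (3 libraries, adjusted p = 0.0754 to 0.123) and *IFI6* (2 libraries, adjusted p = 0.148 to 0.155), and that of *IFIT3* without replicate 3 of *RB1* knockout in abemaciclib (0.0628).

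**Figure D4:**
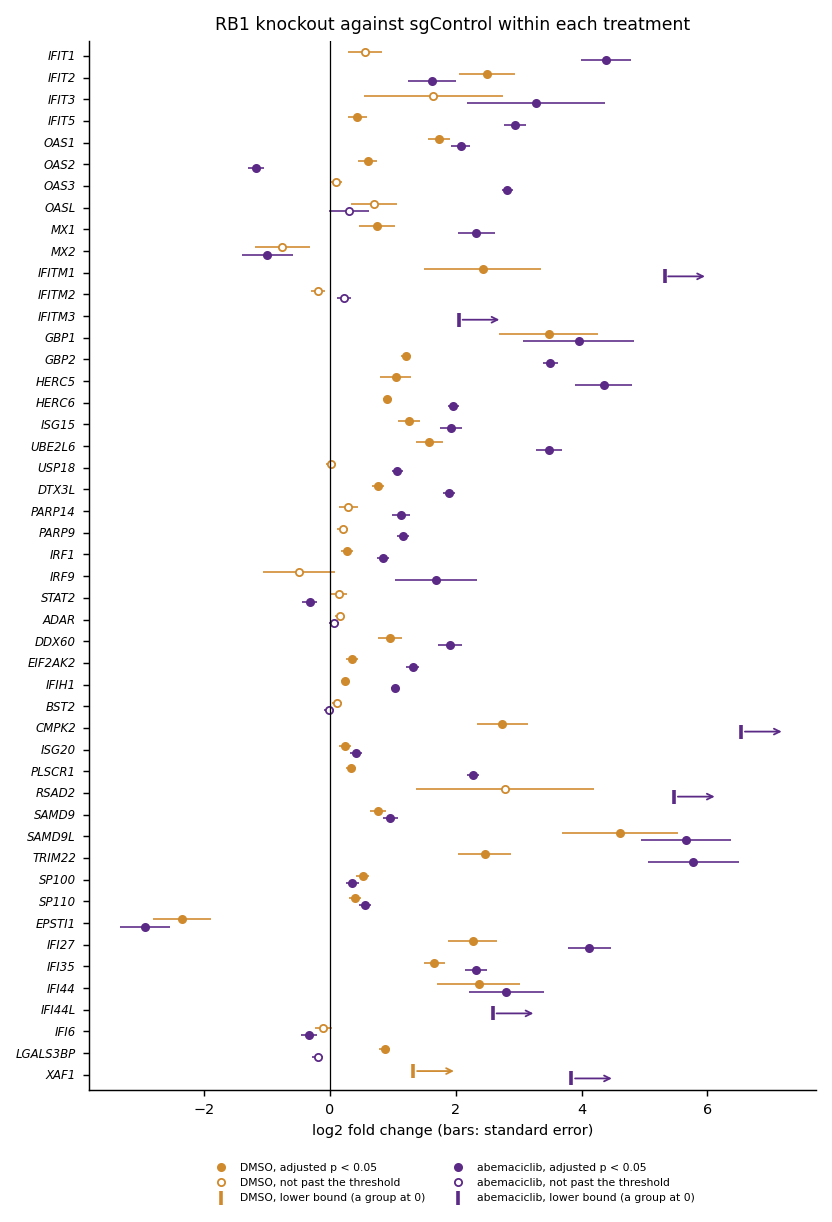
Log2 difference of each gene (rows, grouped by role) between RB1-knockout and sgControl cells in DMSO (orange) and in abemaciclib (purple), with the standard error as a bar, filled points for adjusted p-values under 0.05 and open points otherwise. Ticks with an arrow are lower bounds where all sgControl libraries were at 0; XAF1 in DMSO was not called. Most purple points lie to the right of the orange ones, and those of OAS2, EPSTI1, MX2, STAT2 and IFI6 lie to the left of 0.

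Without replicate 1 of sgControl in DMSO, further genes passed. *BST2* rose with abemaciclib in sgControl cells (0.28, adjusted p = 4.24e-07, against 0.17 ± 0.08, adjusted p = 0.0711 with it), was higher in knockout cells in DMSO (0.21, adjusted p = 0.000233) and had a lower response in the knockout (−0.23, adjusted p = 0.00366). *MX1* fell in sgControl cells (adjusted p = 0.0476). In knockout cells *IFITM2* (adjusted p = 0.0414), *IRF1* (0.0287), *OAS3* (0.0193) and *STAT2* (0.0179) rose. *OASL* was higher in knockout cells in DMSO (1.20, adjusted p = 0.00742, against 0.70 with it). In abemaciclib *IFITM2* was higher in knockout cells (adjusted p = 0.00884) and *LGALS3BP* lower (adjusted p = 0.0107).

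Genes that lie next to each other did not always move together. *OAS1*, *OAS3* and *OAS2* follow each other on the plus strand of chromosome 12, at chr12:112905856-112933219, chr12:112938051-112976460 and chr12:112978395-113011723 (GRCh38). In sgControl cells their log2 fold changes with abemaciclib were 1.02, −2.56 and 2.41, and in knockout cells 1.37, 0.16 and 0.64. All 3 overlap 1 antisense gene, so opposite changes of neighbours in sgControl cells stood beside a shared antisense partner whose reads could not be separated without strand. On chromosome 10, *IFIT2*, *IFIT3*, *IFIT1* and *IFIT5* were at log2 fold changes of 1.32, −0.16, −2.37 and −1.57 in sgControl cells and of 0.45, 1.48, 1.47 and 0.94 in knockout cells. Of these 8 values, those of *IFIT3* and that of *IFIT2* in knockout cells did not pass.

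*HERC6* and *HERC5*, neighbours on chromosome 4, both fell in sgControl cells (−1.36 and −3.63). *GBP1* and *GBP2* on chromosome 1 were at −0.34 (not past the threshold) and −2.40 there. *SAMD9* and *SAMD9L* on chromosome 7 rose by 0.64 and 2.05 in knockout cells. *MX1* rose in knockout cells (0.99), whereas its neighbour *MX2* on chromosome 21 was at 0.35 and did not pass. *RSAD2* and *CMPK2*, which overlap head to head on chromosome 2, rose by 4.40 and 0.97 in knockout cells. *SP110* and *SP100* on chromosome 2 were at −0.23 and 0.37 in sgControl cells, a fall and a rise. The call of *SP110* was lost without any 1 of 9 libraries, and that of *SP100* with total-count scaling (adjusted p = 0.0665). *IFI44L* and *IFI44*, neighbours on chromosome 1, were higher in knockout cells in abemaciclib, *IFI44* by 2.80. The IFITM genes share up to 17.9% of their 100-base windows with each other or with another annotated gene that overlaps them. *IFITM2* was at 2116.7 to 3097.1 normalized counts and was not called in either response, and *IFITM1* and *IFITM3* stayed at or below 52.1 and 5.7.

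Other genes of interferon production, signalling and response were then examined. Of a list of 46 ligands, receptors, kinases, sensors, inhibitors and chemokines found in the table, 14 of 33 tested rose and 5 fell with abemaciclib in sgControl cells, against 24.1% and 23.9% of all genes. In knockout cells 11 of 29 rose and none fell, against 15.0% and 15.1% of all genes. None of the 10 interferon genes passed the filter in any comparison, and *IFNB1*, which encodes interferon beta, was at 0 in all 12 libraries. Kinases of the receptors rose in sgControl cells. *JAK1* was at 4162, 4979.7 and 4517 normalized counts in DMSO and 9836, 9493.5 and 9224 in abemaciclib (1.06 ± 0.06, adjusted p = 2.31e-60). In knockout cells it was at 4273.5, 4183 and 4315 in DMSO and 3905, 3762 and 3938 in abemaciclib (−0.14 ± 0.07, adjusted p = 0.099), and the interaction was −1.20 ± 0.09, adjusted p = 1.14e-37. *JAK2* (1.09 ± 0.09, adjusted p = 8.01e-34) and *DHX58*, a regulator of RNA sensing (1.25 ± 0.15, adjusted p = 1.34e-15), also rose by over 2-fold in sgControl cells. *TLR3*, a receptor for double-stranded RNA (−0.73 ± 0.14, adjusted p = 1.11e-06), *IRF3*, the factor that induces *IFNB1* (−0.52 ± 0.08, adjusted p = 2.37e-10), and *IRF2BP1* (−0.40 ± 0.10, adjusted p = 0.000313) fell.

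*TYK2* rose in both (0.60 and 0.29), less in the knockout (interaction −0.31 ± 0.07, adjusted p = 4.09e-05). Of the receptors, *IFNAR1* rose in sgControl cells (0.17 ± 0.05, adjusted p = 0.00197) and was at −0.03 ± 0.05 in knockout cells (adjusted p = 0.723). *IFNAR2* (0.12 and 0.09) and *IFNGR1* (0.21 and 0.08) passed in neither genotype.

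The strongest rises in knockout cells were those of *SOCS3* and *SOCS1*, inhibitors of cytokine signalling, and of *IFI16*, a DNA sensor. *SOCS3* was at 141, 163 and 166 normalized counts in DMSO and 508.5, 626.5 and 647 in abemaciclib (1.92 ± 0.15, adjusted p = 2.05e-37), against 112, 116 and 109 in DMSO and 198, 257 and 259 in abemaciclib in sgControl cells (1.09 ± 0.15, adjusted p = 1.89e-12). The interaction passed for *SOCS3* (0.83 ± 0.21, adjusted p = 0.000277) and *SOCS1* (0.96 ± 0.34, adjusted p = 0.0118) and did not for *IFI16* (0.76 ± 0.57, adjusted p = 0.304). *DDX58*, which encodes the RNA sensor RIG-I, also rose more in knockout cells (interaction 0.97 ± 0.15, adjusted p = 2.75e-09). Over the list, the interaction was called higher for 6 and lower for 10 of 30 tested, against 21.0% and 20.2% of all genes, the lowest being *JAK1*, *JAK2* (−0.86) and *MAVS*, an adaptor of RNA sensing (−0.85). Between genotypes, 12 of 30 were higher and 4 lower in DMSO, against 16.2% and 15.2% of all genes. In abemaciclib 13 of 31 were higher and 9 lower, against 27.5% and 26.4%, so the number lower was near the background in both. *DHX58* was lower in knockout cells in both (−2.21 and −2.80), and *JAK2* was too (−0.58 and −1.44). *TLR3* (0.94 and 1.87) and *IFI16* (1.28 and 2.04) were higher in both. The chemokine *CXCL10* passed in abemaciclib at a mean of at most 4.2 normalized counts in any group.

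**Figure D5:**
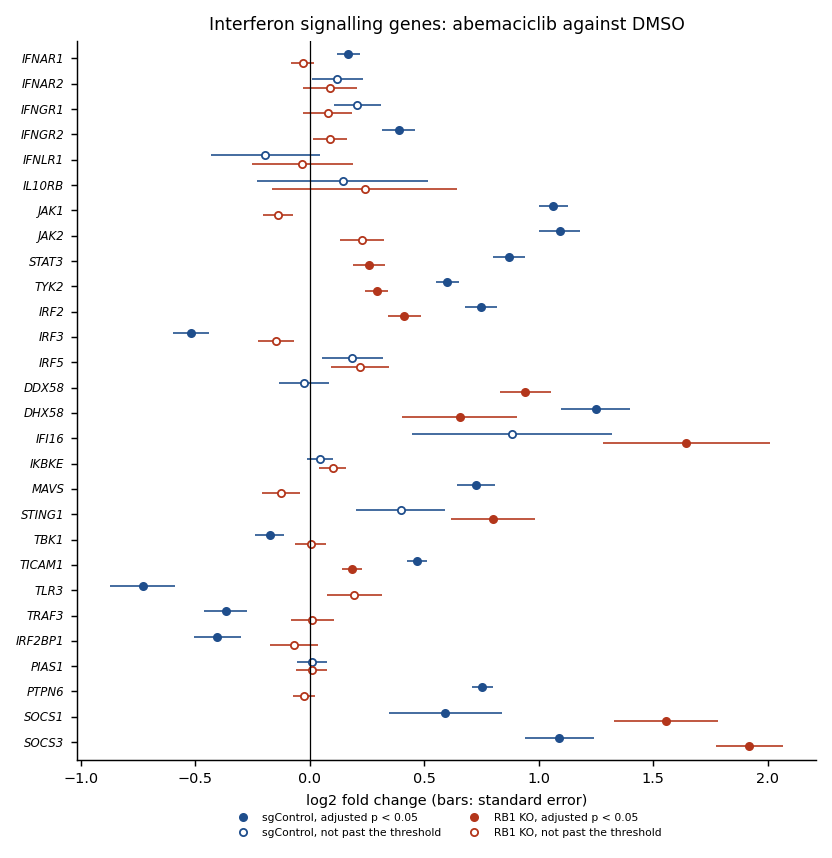
Log2 fold change of interferon signalling genes (rows: receptors, kinases and STAT3, other interferon regulatory factors, sensors and adaptors, inhibitors) for abemaciclib against DMSO in sgControl (blue) and RB1-knockout (red) cells, with the standard error as a bar, filled points for adjusted p-values under 0.05 and open points otherwise. JAK1 and JAK2 lie near 1.1 in sgControl cells and closer to 0 in knockout cells, and SOCS1 and SOCS3 lie farther right in knockout cells.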

How the data were processed

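Read counts per gene were deposited by the authors as 1 table for 12 libraries, as raw whole numbers with no normalization. Per the labels and the authors' methods, reads were trimmed with BBDuk, aligned to hg38 with STAR 2.7.5b and counted with featureCounts 2.0.1 on a GENCODE annotation. The handling of strand and of reads with several alignments is not given in the sources used here. The labels name a directional library kit, whereas the methods describe a kit for the 3′ ends of transcripts, so levels were compared within genes only.

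Of 60656 rows, 44 without a gene symbol (0% of counts) were left out. DESeq2 1.42.0 in R 4.3.3 fitted the 4 groups over all 12 samples, with median-of-ratios scaling, two-sided Wald tests, no shrinkage and Benjamini-Hochberg adjustment over the genes left by independent filtering. The threshold for a call was an adjusted p-value of 0.05. Where a group had no count, a floor of 3 counts over the group gave a bound on the fold. With totals of 39907318 counts or more, genes of a few counts were limited by counting error. The 50 genes, the signalling list and the markers were chosen with earlier results of these data known. Values in all libraries are given for up to 4 genes per direction and comparison with the largest called change and a mean of at least 50 normalized counts, for *ISG15*, *STAT2*, *IRF1*, *IRF7* and *IRF9*, and for *EPSTI1*. The counts over the signalling list include 1 gene that is not reported here. Values of *JAK1* and *SOCS3*, and other single values, were added after they had been seen.

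Groups share replicate numbers. Deviations from group means of same-numbered libraries correlated over 11885 genes at 0.15, 0.26 and 0.11 between genotypes in abemaciclib, which was taken as pairing there, and not throughout in the other comparisons. This pairing comes from the data, as the labels name no shared batch. Alternatives were edgeR 4.0.16, total-count scaling, a minimum of 10 counts in 3 samples, no filter, the replicate number as a block, the 6 samples compared alone, and leaving out each library. The statistics were tested on simulated data. Gene positions and overlaps came from GENCODE release 44, and promoter sequences from RefSeq.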

Additional observations from a re-analysis of the deposited data

Results flagged for a closer look

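The response to abemaciclib differed between *RB1*-knockout and sgControl cells in 29 genes by the interaction term itself. The log2 response was higher in the knockout for 26 and lower for 3 of 47 tested (55.3% and 6.38%). Over all 21008 genes tested, the shares were 21.0% and 20.2%. The log2 difference, knockout minus sgControl, was negative in *OAS2* (−1.77), *LGALS3BP* (−1.06) and *STAT2* (−0.46). Among the *ISG15* conjugation genes it was 3.31 for *HERC5*, 1.90 for *UBE2L6*, 1.06 for *USP18*, 1.05 for *HERC6* and 0.67 for *ISG15*. In the *PARP9* and *DTX3L* module it was 1.13 for *DTX3L*, 0.96 for *PARP9* and 0.83 for *PARP14*. The RNA-binding proteins *OAS3* (2.72), *IFIT5* (2.51), *IFIT1* (3.84), *EIF2AK2* (0.97), *DDX60* (0.96) and *IFIH1* (0.80) were also higher in the knockout. So were *GBP2* (2.29), *PLSCR1* (1.94), *IFI27* (1.85), *MX1* (1.58) and *IFI35* (0.67), and the transcription factors *IRF9* (2.18) and *IRF1* (0.58). *TRIM22* was at 3.31 and *IFITM2* at 0.41. The values of *CMPK2* (6.23), *IFITM1* (5.34) and *RSAD2* (5.13) are fitted against groups at or near 0 and are no bounds. The calls of *STAT2*, *IRF9*, *ISG15*, *IFITM2*, *IFI35*, *IFITM1* and *RSAD2* were lost without single libraries, as given above. Total-count scaling also lost the call of *STAT2* (adjusted p = 0.242), and the fit with no filter that of *IRF9* (0.0505).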

How the results depend on the processing

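No called gene of the set reversed its direction in any alternative. Genes called in neither fit changed sign in 7 cases (largest 0.11 on the log2 scale), and in 26 when 1 library was left out (largest 2.28). The number lower in knockout cells in abemaciclib was 2 under total-count scaling against 5, and the number higher in DMSO was 19 against 29 when only the 6 samples compared were fitted with the replicate block. Over all genes, the former number was 4819 against 5885, and the latter 1872 of 17091 tested against 3206 of 19757. *OAS2*, *PLSCR1*, *IFIH1*, *EIF2AK2* and *IFI44* were among those that lost their DMSO call (adjusted p = 0.106, 0.0745, 0.142, 0.0537 and 0.0597). Leaving out 1 library, 1 to 2 genes were lower in knockout cells in DMSO and 3 to 6 in abemaciclib. The number higher then ranged from 25 to 30 in DMSO and from 34 to 39 in abemaciclib. Over all genes, it ranged from 2562 to 3451 in DMSO and from 5575 to 6344 in abemaciclib.

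With the replicate number as a block, 10 genes rose and 18 fell in sgControl cells, 21 rose and 2 fell in knockout cells, the interaction was higher for 26 and lower for 3, and the genotypes differed in 28 higher and 1 lower in DMSO and 37 higher and 6 lower in abemaciclib. Over all genes, 5567 rose and 5511 fell in sgControl cells with this block, and 2620 rose and 2762 fell in knockout cells. The interaction was higher for 4313 and lower for 4201. Between genotypes 3172 were higher and 2859 lower in DMSO, and 5982 higher and 5772 lower in abemaciclib. Same-numbered libraries correlated at 0.25, 0.22 and −0.08 in the sgControl response, −0.02, −0.07 and 0.02 in the knockout response and −0.25, −0.01 and 0.08 between genotypes in DMSO. Depth limits *CMPK2*, *RSAD2*, *IFITM1*, *XAF1*, *IFI44L* and *IFITM3*, which had groups without a count.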
